A study of Mus musculus with 4 samples.

Results

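Basal keratinocytes are held to the basement membrane by hemidesmosomes, and 8 genes of this anchor were read here: Itga6, Itgb4, Col17a1, Dst, Plec, Cd151, Lama3 and Lamb3. They were taken by name, as every probe set whose platform gene symbol is one of the 8. The 8 genes were chosen with earlier results of these data known. The 8 are among 18193 genes named on the array, and they have 20 of its 45037 probe sets that are not controls. In a hemidesmosome the alpha6beta4 integrin (Itga6, Itgb4) and collagen XVII (Col17a1) span the membrane, the plakins plectin (Plec) and BP230 (Dst) tie them to keratin filaments inside the cell, and the tetraspanin CD151 sits beside the integrin. Outside the cell the integrin binds laminin-332, a trimer whose alpha3 and beta3 chains come from Lama3 and Lamb3. Basal cells carry these structures and suprabasal cells do not.

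The samples were basal cells sorted from the tail skin of CD-1 mice that carried RosaYFP, a reporter switched on by Cre, together with 1 of 2 inducible Cre transgenes. In K14CREER/RosaYFP mice Cre is driven by the keratin 14 promoter, which is active in basal cells. In InvCREER/RosaYFP mice it is driven by the involucrin promoter, and involucrin is best known as a protein of differentiating suprabasal cells. All the mice were given tamoxifen. The dose was 1 ug in K14CREER mice but 10 ug in InvCREER mice, and the effects of dose and of Cre line cannot be told apart. The interval after induction was 3.5 days by the sample titles and 4 days by the protocol. Ages and pooling of animals were not given in the sources used here. From both lines the sort kept live, YFP-positive cells that stained strongly for alpha6 integrin and not for CD34, so that the gate itself used the protein product of Itga6. There were 2 arrays per line, named here K14CREER 1 and 2 and InvCREER 1 and 2. Nothing in the labels says that the 2 are separate animals, and p-values then cover only the spread between these arrays, which for K14CREER can be technical.

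The question was how these genes compared between basal cells marked by the involucrin promoter and those marked by the keratin 14 promoter. Values are RMA expression values on the log2 scale, and a difference is InvCREER minus K14CREER, so that -1 is a halving. A probe set was tested when its mean over the 4 arrays reached 5.42, the median of all probe sets that are not controls, and 22519 were. Of the 20 probe sets of these genes 18 were tested. It was called when limma gave an adjusted p under 0.05 over all 22519. A gene is represented by its tested probe set with the highest mean.

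The sort was checked on markers. The basal keratin genes Krt5 and Krt14 were at 13.21 to 14.17 on every array. The suprabasal keratin genes Krt1 and Krt10 were high too. Krt1 was at 12.50 and 12.13 in K14CREER and at 13.48 and 13.74 in InvCREER. Krt10 was at 13.31 and 13.44 in K14CREER and at 14.07 and 14.11 in InvCREER. Of the other suprabasal markers, Krtdap was at 13.22 to 13.80 and Sbsn at 10.87 to 13.11 over the 4 arrays. Lor was at 6.16 to 7.70 and Flg was under the filter. The mean of Cd34, whose protein was the negative gate, was under the filter. On K14CREER 1, however, Cd34 was at 6.07, against 3.59 to 3.88 on the other 3 arrays. The simple-epithelium keratin genes Krt8 and Krt18, read as Merkel cell markers, were also high on K14CREER 1, at 7.44 against 5.08 to 5.34 and at 7.69 against 4.20 to 4.40. Of the other Merkel cell markers, Krt20, Atoh1 and Sox2 lay under the filter, at 3.98 to 4.49, 4.11 to 4.70 and 3.09 to 3.37. Piezo2 was at 5.90 on K14CREER 1 against 5.14 to 5.67. Ivl, the gene of involucrin, was under the filter too, at 4.58 and 6.23 in K14CREER and at 4.78 and 5.06 in InvCREER. InvCREER 1 stood apart in other respects. Xist was at 12.56 there against 5.44 to 8.26 elsewhere, and Uty, a Y-linked gene, at 4.70 against 7.19 to 7.85, so the 2 InvCREER arrays did not hold repeats of 1 RNA sample. The log2 ratio of 3' to 5' control probe sets, a sign of RNA quality, was 1.24 for Actb on InvCREER 1, 0.94 on K14CREER 1, 0.68 on K14CREER 2 and 0.77 on InvCREER 2.

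Start-site windows from RefSeq (GRCm38.p6) were read for 4 of the 8 genes. Itga6, Itgb4 and Plec had no window, and Lama3 was left out of the reading. For the 4 genes read, 5 windows are shown because the results turn on genes that lay lower side by side. Each is the 250 bases before a start site, read 5′ to 3′ on the strand of the gene, and capitals mark motif matches. The windows are chr1:193301744-193301993 on the plus strand for Lamb3, chr19:47692043-47692292 on the minus strand for Col17a1, chr7:141467112-141467361 on the plus strand for Cd151, and chr1:34011345-34011594 and chr1:34160010-34160259 on the plus strand for an upstream and a downstream start of Dst.
Lamb3: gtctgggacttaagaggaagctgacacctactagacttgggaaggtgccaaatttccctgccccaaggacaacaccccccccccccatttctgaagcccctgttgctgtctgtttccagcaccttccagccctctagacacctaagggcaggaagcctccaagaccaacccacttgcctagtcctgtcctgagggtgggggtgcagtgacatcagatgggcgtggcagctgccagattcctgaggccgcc
Col17a1: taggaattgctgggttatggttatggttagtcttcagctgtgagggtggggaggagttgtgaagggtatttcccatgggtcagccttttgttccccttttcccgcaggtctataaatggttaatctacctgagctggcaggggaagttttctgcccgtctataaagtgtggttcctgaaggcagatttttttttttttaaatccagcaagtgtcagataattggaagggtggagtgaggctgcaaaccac
Cd151: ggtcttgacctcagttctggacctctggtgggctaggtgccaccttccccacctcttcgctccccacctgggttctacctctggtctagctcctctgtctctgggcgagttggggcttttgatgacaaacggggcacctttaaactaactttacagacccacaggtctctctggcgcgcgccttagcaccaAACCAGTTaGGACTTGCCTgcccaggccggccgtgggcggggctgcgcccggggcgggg
Dst, upstream start: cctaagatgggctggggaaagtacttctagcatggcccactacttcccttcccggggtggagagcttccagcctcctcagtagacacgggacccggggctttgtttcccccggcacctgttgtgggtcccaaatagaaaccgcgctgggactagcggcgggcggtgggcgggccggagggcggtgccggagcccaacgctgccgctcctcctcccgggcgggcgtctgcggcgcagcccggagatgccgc
Dst, downstream start: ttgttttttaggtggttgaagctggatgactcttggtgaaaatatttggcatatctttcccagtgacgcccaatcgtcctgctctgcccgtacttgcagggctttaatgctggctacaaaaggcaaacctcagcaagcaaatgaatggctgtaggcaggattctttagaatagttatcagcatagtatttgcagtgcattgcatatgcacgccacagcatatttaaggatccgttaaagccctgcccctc

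Both strands were searched for the AP-1 motif TGANTCA, the grainyhead motif AACNGGTT, the TEAD motif GGAATG and the p53 family half-site. Of 32851 windows of this length in the table, 6.75% held AP-1, 1.79% grainyhead, 12.6% TEAD and 7.13% the half-site. Among the 5 windows shown the matches were in Cd151: AACCAGTT, a grainyhead match that begins 59 bases before the start, and GGACTTGCCT, a half-site match that begins 50 bases before it and does not overlap the first. The windows shown for Lamb3, Col17a1 and Dst held none of these 4 motifs. A second start of Lamb3 and one of Cd151 have windows that are not shown. That of Lamb3, chr1:193301993-193302242 on the plus strand, held CATTCC, a TEAD match on the other strand that begins 167 bases before the start, and that of Cd151 held none of the 4. GC content was 58.8% for Lamb3, 46.0% for Col17a1, 62.4% for Cd151, and 68.8% and 45.2% for the upstream and downstream starts of Dst, against a median of 52.4% over all windows. The 2 starts of Dst thus lie in sequence of unlike composition.

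All 8 genes had a lower mean in InvCREER, and for each of them both InvCREER arrays lay below both K14CREER arrays. Of all 11270 genes tested, 24.1% showed such a gap in this direction. The differences ran from -1.77 for Lamb3 to -0.44 for Plec, with a median of -0.74, against a median of -0.01 over all genes. Lamb3 was the 1 gene of the 8 called by limma, and 0.373% of all genes were called lower. The adjusted p of the other 7, from limma, was 0.0564 to 0.384. In sorted bulk samples, fewer cells of a type and less RNA per cell cannot be told apart.

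**Figure D1:**
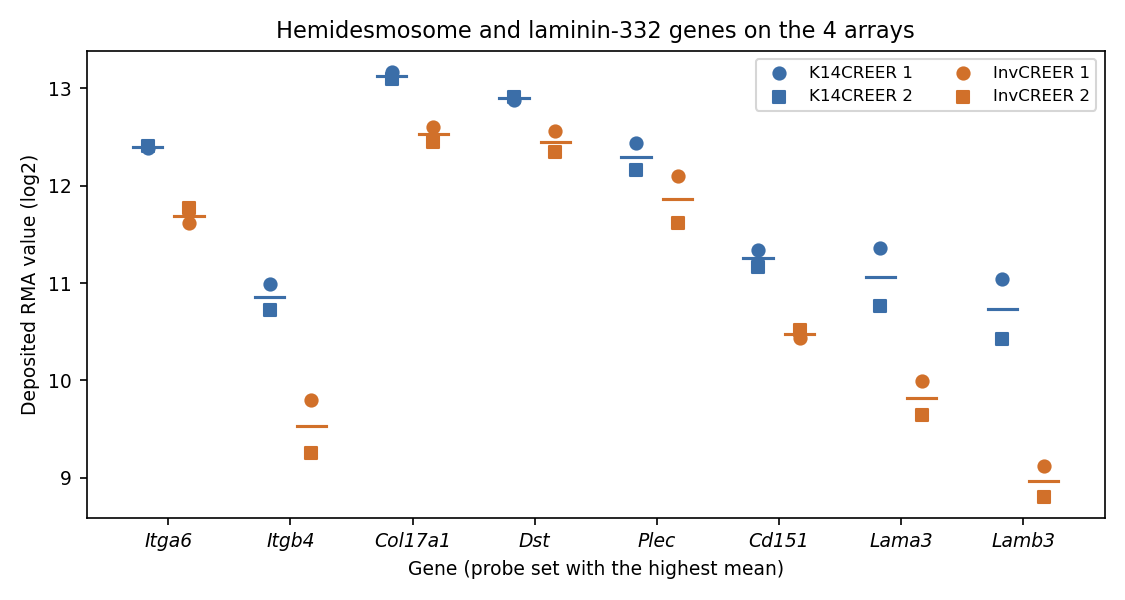
Deposited RMA values (log2, vertical axis) of the 8 genes, each on its probe set with the highest mean, on the 4 arrays; points are arrays and short lines the means of the 2 arrays of a line. Both InvCREER points lie under both K14CREER points for each gene, with the widest gap for Lamb3 and the narrowest for Plec.

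Of the 8 genes Lamb3 showed the largest difference. Lamb3, which encodes the beta3 chain found in laminin-332, was at 11.04 and 10.42 on the K14CREER arrays and at 9.12 and 8.81 on the InvCREER arrays. The lowest K14CREER value was 1.30 above the highest InvCREER value. Lamb3 fell by 1.77 (SE 0.26, 95% interval -2.39 to -1.14, adjusted p = 0.0440 by limma), which is 3.40-fold. From the bottom, Lamb3 held rank 34 of the 11270 genes. Its call was lost without K14CREER 1, where the difference was -1.46 (adjusted p = 0.135 by limma), and without the variance trend (adjusted p = 0.0757 by limma).

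Lama3 encodes the alpha3 chain, which carries the site that the integrin binds. It was at 11.36 and 10.77 in K14CREER and at 9.99 and 9.65 in InvCREER. The groups did not overlap, and the difference was -1.25 (SE 0.25, interval -1.84 to -0.65, adjusted p = 0.0828 by limma). Its rank among all genes was 154. A second Lama3 probe set, 1444860_at, lay under the filter at 4.18 to 4.48 on all arrays and was not tested.

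Both laminin genes were higher on array 1 than on array 2 of each line, by 0.61 and 0.32 for Lamb3 and by 0.60 and 0.34 for Lama3. In each line the array with the higher 3' to 5' ratio of Actb was thus the one with the higher laminin value. The part of RNA quality in the difference between the lines was not tested.

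Among the receptors, Itgb4 showed the larger difference. The beta4 subunit has a long cytoplasmic tail that binds plectin and pairs with alpha6 alone. Itgb4 was at 10.99 and 10.72 in K14CREER and at 9.80 and 9.25 in InvCREER. It differed by -1.33 (SE 0.24, interval -1.90 to -0.76, adjusted p = 0.0631 by limma), at rank 117 of all genes. The groups were separated by 0.92, more than the distance between the 2 arrays of either line.

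Itga6, whose protein was the surface marker of the sort in both lines, was read on 2 probe sets designed on 1 transcript. On 1422445_at it was at 12.38 and 12.41 in K14CREER and at 11.62 and 11.77 in InvCREER. The difference was -0.70 (SE 0.12, interval -0.98 to -0.42, adjusted p = 0.0564 by limma). On 1422444_at it was at 12.20 and 11.67 in K14CREER and at 11.03 and 10.70 in InvCREER, a difference of -1.07 (SE 0.22, adjusted p = 0.0886 by limma). Both probe sets put the InvCREER arrays lower with no overlap. The 2 differences were 0.36 apart (SE 0.26, interval of the second minus the first -0.99 to 0.27, adjusted p = 1.00 by limma).

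Col17a1 encodes collagen XVII, also known as BP180, a target of autoantibodies in bullous pemphigoid. It was at 13.17 and 13.10 in K14CREER and at 12.61 and 12.45 in InvCREER. The difference of -0.60 (SE 0.10, interval -0.85 to -0.36, adjusted p = 0.0565 by limma) had the smallest standard error of the 8 genes.

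Cd151 encodes the tetraspanin of the hemidesmosome. Of its 5 tested probe sets 4 gave nearly the same answer. On 1456085_x_at, the one with the highest mean, it was at 11.34 and 11.16 in K14CREER and at 10.44 and 10.52 in InvCREER. The difference was -0.77 (SE 0.15, interval -1.14 to -0.41, adjusted p = 0.0800 by limma). The differences on 1437670_x_at, 1451232_at and 1424093_x_at were -0.78, -0.81 and -0.77, again with no overlap between the lines. These probe sets are no independent replicates of one another, since 2 of them were designed on the same transcript and 3 have a suffix that marks probes able to match other transcripts. The other tested probe set, 1427525_at, was at 5.78 to 6.14 on all 4 arrays, close to the filter, and overlapped between the lines. A further one, 1420921_at, lay under the filter at 4.69 to 5.08.

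The 3 tested probe sets with a higher mean in InvCREER were all of the plakins, 2 of Dst and 1 of Plec. Dst encodes several large cytoskeletal linkers, and BP230, the epidermal one, is made from its own transcript. On 1421117_at Dst was at 12.88 and 12.91 in K14CREER and at 12.56 and 12.35 in InvCREER, a difference of -0.44 (SE 0.11, adjusted p = 0.132 by limma). On 1450119_at, designed on the same transcript, it was at 12.51 and 12.62 against 11.80 and 11.69. This probe set fell by 0.82 (SE 0.11, interval -1.09 to -0.54, adjusted p = 0.0388 by limma). The call was lost without K14CREER 1 (-0.87, adjusted p = 0.114 by limma), without K14CREER 2 (-0.76, adjusted p = 0.130 by limma) and without the variance trend. The 2 other probe sets lay on the other side of zero.

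On 1423626_at Dst was at 9.62 and 8.13 in K14CREER and at 10.01 and 8.99 in InvCREER. On 1421276_a_at it was at 7.11 and 6.19 in K14CREER and at 7.43 and 6.86 in InvCREER. The lines overlapped on both, with differences of 0.63 (SE 0.54, interval -0.68 to 1.94) and 0.50 (SE 0.38, interval -0.41 to 1.41). On these 2 probe sets the arrays with the higher 3' to 5' ratio, K14CREER 1 and InvCREER 1, were the higher of each line, by 1.49 and 1.02 and by 0.92 and 0.57. The part of RNA quality in this split was not tested. With the mean of all 4 probe sets the difference of Dst was -0.03 (adjusted p = 0.978 by limma).

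Plec encodes plectin, which links the beta4 tail to keratin filaments. On 1419835_s_at it was at 12.44 and 12.16 in K14CREER and at 12.10 and 11.62 in InvCREER. The lines were separated by 0.06, less than the distance between the 2 arrays of either line, and the difference was -0.44 (SE 0.19, interval -0.90 to 0.02, adjusted p = 0.384 by limma). It was -0.68 without InvCREER 1 and -0.20 without InvCREER 2. On 1434610_at the 2 arrays of a line were further apart than the lines, at 9.56 and 8.60 against 9.26 and 8.07. On 1437554_at Plec was at 7.72 and 7.09 against 7.51 and 7.49, a difference of 0.10 (interval -0.58 to 0.78). A further probe set carries both Parp10 and Plec as symbols and was not used.

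**Figure D2:**
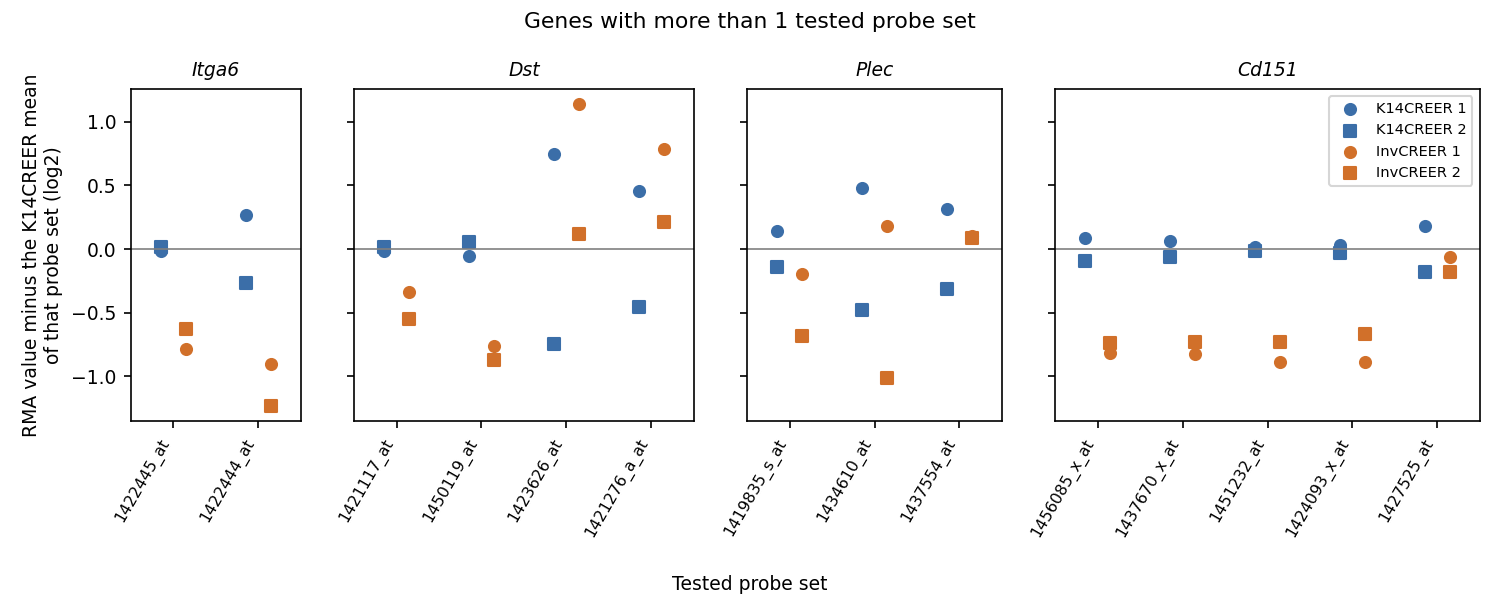
Values of every tested probe set of the 4 genes with more than 1, each relative to its own K14CREER mean (log2, vertical axis); points are arrays. Itga6 and 4 of 5 Cd151 probe sets put both InvCREER arrays low, whereas 1423626_at and 1421276_a_at of Dst and 1434610_at of Plec are spread by array within each line.

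Counted by probe set, 15 of the 18 tested had a lower mean in InvCREER and 13 were lower without overlap, against 22.1% of all tested probe sets. limma called 2 of the 18, 1450119_at of Dst and the Lamb3 probe set, and 0.275% of all were called lower. At an unadjusted p under 0.05 there were 12, all lower, against 7.35% of all tested probe sets that were lower at this p. The 5 that overlapped between the lines were 2 of Dst, 2 of Plec and 1 of Cd151.

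**Figure D3:**
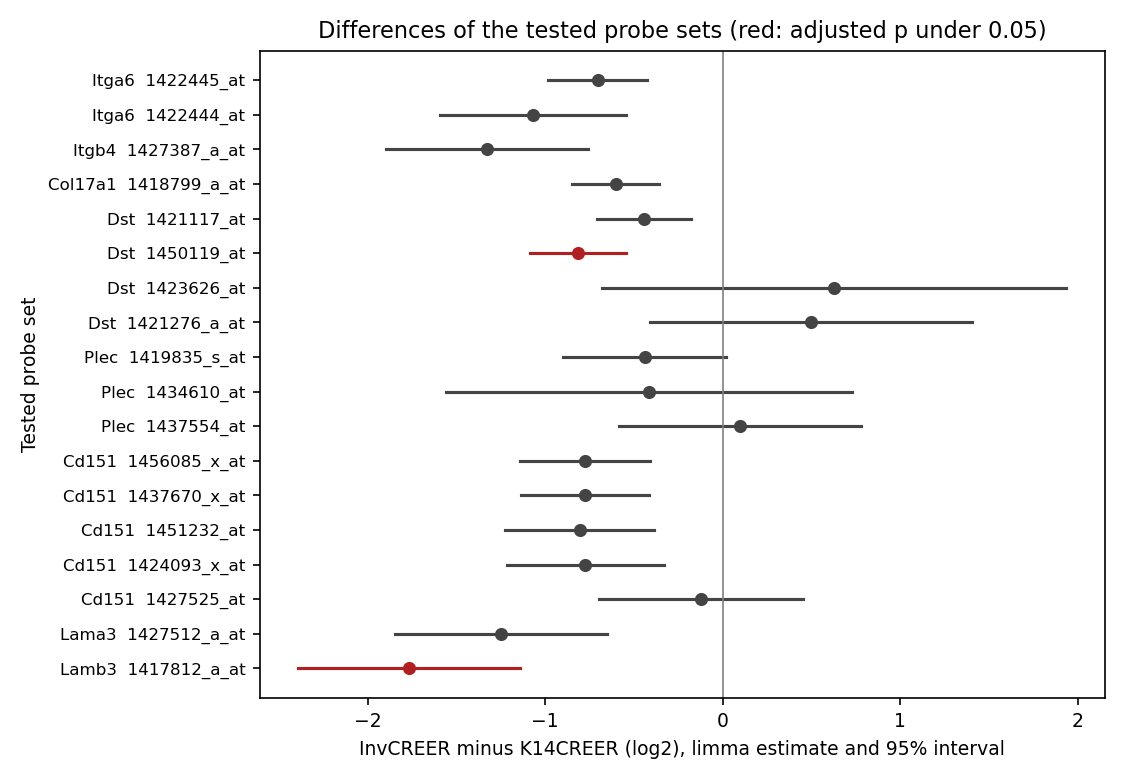
InvCREER minus K14CREER (log2, horizontal axis) for the 18 tested probe sets; points are limma estimates, bars their 95% intervals, and red marks an adjusted p under 0.05. The 2 red probe sets are 1450119_at of Dst at -0.82 and that of Lamb3 at -1.77, and 6 intervals cross 0.

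Whether probe sets of one gene differed in their response was tested directly, a choice made after the values were seen. Each tested probe set was set against the one with the highest mean of its gene, and limma was run over all 8437 such probe sets. It called 0.0356% of them and none of the 10 from these genes, of which 1 was at an unadjusted p under 0.05. That was 1421276_a_at of Dst, whose difference was 0.94 above that of 1421117_at (interval 0.02 to 1.87, adjusted p = 1.00 by limma). Without K14CREER 2 this was 0.47, and the probe set's own difference was 0.04. For Cd151, 1427525_at was 0.65 above 1456085_x_at (interval -0.02 to 1.32). With 2 arrays per line these intervals are wide, so the split within Dst is a description.

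The number of calls turned on single arrays. Without K14CREER 1 limma called 0 of the 8 genes, without K14CREER 2 it called 1, and without InvCREER 1 or InvCREER 2 it called 5 each. The median difference over the 8 genes was -0.80 to -0.70 in these 4 fits. Each leaves 1 line with a single array, which is then assumed to vary as the 2 arrays of the other line do, so a smaller p in such a fit is no firmer. K14CREER 1 was the array with high Cd34, Krt8 and Krt18. The dermal fibroblast markers other than Pdgfrb were highest there too, some of them by little. Col1a2 was at 6.70 against 5.17 to 5.80, Col3a1 at 6.12 against 3.73 to 4.43 and Fbln2 at 6.44 against 4.87 to 5.08. The part of other cells on K14CREER 1 in the calls was not tested. Without InvCREER 1, the array that stood apart in Xist and Uty, Itgb4 was at -1.60 (adjusted p = 0.00425 by limma), Lama3 at -1.42 (adjusted p = 0.0143 by limma) and Col17a1 at -0.68 (adjusted p = 0.00976 by limma).

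Genes around the hemidesmosome were read from lists. Of all 11270 genes, 8.54% were lower and 7.58% higher at an unadjusted p under 0.05. Of 6 laminin receptors with a tested probe set, 4 had lower and 2 had higher means in InvCREER. Of these 6, 0 were called by limma, with 3 lower at an unadjusted p under 0.05 and a median difference of -0.65. Itgb1, the beta1 integrin subunit, was at -1.48 (adjusted p = 0.0516 by limma), and Itga3, which pairs with it as the laminin-binding integrin outside hemidesmosomes, at -1.30. Bcam, a receptor for laminins with an alpha5 chain, was at -1.10. Sdc4, a syndecan, was at -0.19. Of 5 other laminin chains tested, 0 were called, 4 had lower means, and 3 were lower at an unadjusted p under 0.05, led by Lamc1 at -1.18 (adjusted p = 0.0918 by limma).

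Of 5 basal anchorage partners tested, all had lower means with no overlap, against 24.1% of all genes tested. Krt15, a basal keratin, fell by 1.38 (SE 0.15, adjusted p = 0.0212 by limma). Its call was lost without K14CREER 1, where the difference was -1.25. Col7a1, the collagen of the anchoring fibrils beneath the basement membrane, was at -0.83 (adjusted p = 0.0700 by limma). Krt5 and Krt14, the keratins to which hemidesmosomes attach, were at -0.46 and -0.33.

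The relatives of the plakins and of Cd151 gave other values. Of 5 other plakins, 0 were called, and none had a lower mean in InvCREER. Evpl encodes envoplakin, of the cornified envelope. Its difference was 1.26 (adjusted p = 0.0511 by limma), the 1 at an unadjusted p under 0.05. Macf1 was at 0.35, Eppk1 at 0.31 and Dsp, the plakin of desmosomes, at 0.14. Of 3 other tetraspanins tested, 0 were called and none was at an unadjusted p under 0.05, with Cd9 at -0.10, Cd81 at -0.06 and Cd82 at 0.39. Differences between these genes and Dst, Plec or Cd151 were not tested. Of 6 proteases known to act on laminin-332 or collagen XVII, 0 were called and 2 were lower and 1 higher at an unadjusted p under 0.05. Mmp14 was at -0.99 (adjusted p = 0.0812 by limma).

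**Figure D4:**
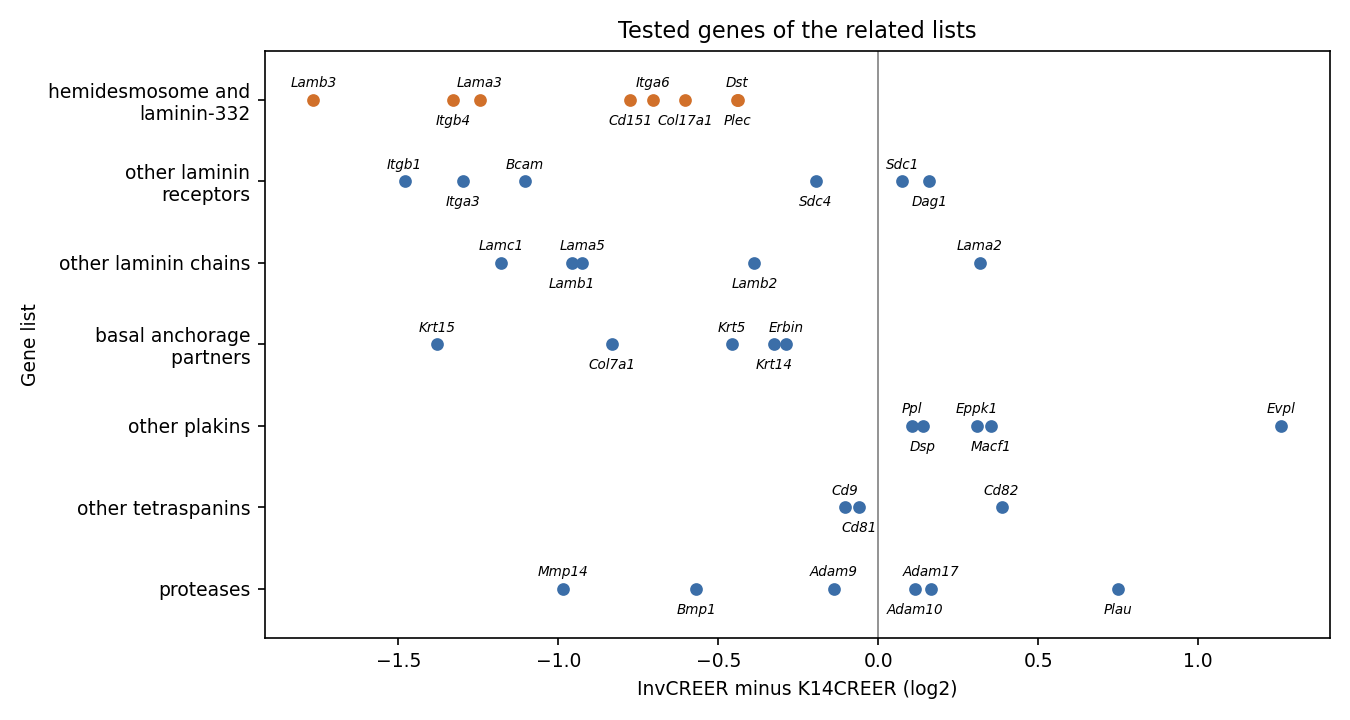
InvCREER minus K14CREER (log2, horizontal axis) for the 8 genes (orange) and for tested genes of 6 related lists (blue), each point a gene on its probe set with the highest mean. The 8 genes lie between -1.77 and -0.44, and the 5 other plakins between 0.10 and 1.26.

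Markers of other cells also differed between the lines, some higher and some lower in InvCREER. Of 7 suprabasal markers 5 were tested, all with higher means in InvCREER, and Krt1, Krt10 and Sbsn rose, by 1.29, 0.71 and 1.97, with the call of Krt10 lost without K14CREER 1 (adjusted p = 0.0645 by limma). Averaged over the 7, the K14CREER arrays stood at 9.21 and 9.57 and the InvCREER arrays at 9.91 and 10.20. Of 10 dermal fibroblast markers 6 lay under the filter, Col1a1, Col3a1, Lum and Pdgfra among them, and their mean was 6.73 and 6.05 against 5.75 and 5.66. Sparc was the 1 called, and it fell by 2.36 (SE 0.14). Dcn, which encodes decorin, was at 9.50 and 9.07 in K14CREER and at 7.09 and 7.75 in InvCREER, a difference of -1.87 (adjusted p = 0.0552 by limma). Averaged over 9 named sebaceous gland genes, InvCREER 1 stood at 10.42 and InvCREER 2 at 8.87, and the K14CREER arrays at 7.63 and 7.13. All 9 had higher means in InvCREER, 8 of them at an unadjusted p under 0.05 by limma, against 7.58% of all genes. Dgat2 was the 1 of them called, and it rose by 1.81, a call lost without K14CREER 1 (adjusted p = 0.127 by limma) or K14CREER 2 (adjusted p = 0.0947 by limma). The 10 Langerhans and myeloid markers were at 5.46 and 5.26 against 7.26 and 6.00, with 0 called by limma and 6 higher at an unadjusted p under 0.05. The part of these cells in the lower hemidesmosome values was not tested.

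Markers of other cells that use the same genes were read too. Endothelial cells and Schwann cells carry alpha6 integrin, and muscle makes plectin and other Dst products. Of 6 endothelial markers 5 lay under the filter, with Pecam1 at 4.30 to 4.84, and of 6 skeletal muscle markers 4 did, with Acta1 at 5.07 to 5.35. Of 4 named Schwann cell markers, Ncam1 lay under the filter. Sox10 was at 6.24 to 6.76 and Mbp at 8.37 to 8.75, with differences of -0.25 and -0.02. Pmp22, which is also made outside that lineage, fell by 1.77 (adjusted p = 0.0429 by limma). Its call was lost without K14CREER 1, where the difference was -1.52, or K14CREER 2, where it was -2.02. Of tested melanocyte and Merkel cell markers limma called 0, and none was at an unadjusted p under 0.05. Of 8 follicle markers 5 were tested, with 2 lower and 3 higher means in InvCREER and a median difference of 0.33. Lgr6 fell by 1.79, a call lost without K14CREER 1 (adjusted p = 0.114 by limma) or K14CREER 2 (adjusted p = 0.0794 by limma), whereas Krt79 was at 1.98 (adjusted p = 0.182 by limma) and Sox9 at 0.78 (adjusted p = 0.436 by limma), both higher without overlap, and Krt17 at 0.33.

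The 6 genes outside the 8 whose profile over the 4 arrays was nearest to the mean profile of the 8, each centred on its own mean, were Smc4, Trim47, Glul, Zbtb12, Gpnmb and P3h2. Their root mean square distance was 0.016 to 0.052 log2 units over the 4 arrays. Smc4, a condensin subunit, was the nearest, with a difference of -0.90 (adjusted p = 0.0801 by limma). Glul, which encodes glutamine synthetase, was at -0.86, and P3h2, a collagen prolyl hydroxylase, at -0.85. The 8 genes lay further from their own mean profile, from 0.13 for Cd151 to 0.45 for Lamb3, and 93 to 3778 other genes lay nearer than they did.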

How the data were processed

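The 4 Affymetrix arrays, 2 per Cre line, each took 100 ng of total RNA through the maker's 3' IVT amplification and labelling, per the labels' protocols. The deposited log2 values were made by the authors with RMA (Affymetrix Expression Console, version 1.1, by the submitters' processing notes). RMA gives all arrays 1 distribution, which hides any change in a cell's total RNA. With 2 arrays a line, their number limits precision.

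Of 45101 probe sets, 64 controls were set aside. Symbols came from the platform annotation, updated by Entrez number in a RefSeq table of GRCm38.p6. Of 45037 probe sets 34945 had 1 symbol, 932 several and 9160 were unnamed. InvCREER was compared with K14CREER by limma 3.58.1 in R 4.3.3 (lmFit, eBayes with a variance trend), 2-sided, with no block, and p-values were Benjamini-Hochberg adjusted over 22519 tested probe sets. The smallest 2-sided p of an exact permutation test is 0.333 in this design. The procedure was tested on simulated data.

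The genes and lists were chosen with earlier results of these data known, so no list was tested as a set. Of 114 listed genes 108 had a named probe set. The rule for names covered the 8 genes, at most 4 genes a list, called ones first and then those with the largest difference, and the 6 nearest profiles. Checks of the sort and of the arrays, and markers under the filter, were named outside it. Alternatives covered the filter, variance model, weights, scaling, pairing, single arrays, unit of testing, probe set kind and threshold. Figures were drawn with matplotlib 3.10.9.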

Additional observations from a re-analysis of the deposited data

How the results depend on the processing

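Each of the 8 genes kept a lower value in InvCREER under every alternative in which it had a tested probe set. The median difference over the 8 ran from -0.80 to -0.57, the latter over the 4 genes with a tested probe set that matches 1 transcript only. Itgb4, Col17a1, Lama3 and Lamb3 had no tested probe set of this kind, so the call of Lamb3 could not be kept there. For Lama3, 1444860_at has no such suffix but lay under the filter. The number of the 8 genes called by limma, 1 as reported, was 0 without the variance trend and on probe sets specific to 1 transcript, 3 after a second quantile normalisation, 5 at the filter at the 75th percentile and with the mean of the probe sets of a gene, and 6 with 1 probe set per gene and at an adjusted p under 0.1. The number of probe sets called, 2 as reported, was 0 in these same 2 settings, 4 after quantile normalisation, 7 at the 75th percentile and 9 at an adjusted p under 0.1. Leaving out 1 array gave 0 to 5 genes and 0 to 7 probe sets. The cause was not tested. The stricter filter and 1 probe set per gene meant both fewer tests and a variance model fitted anew. With the replicate number as a block 6 genes and 11 probe sets were called. Same-numbered arrays deviated together (r = 0.38 across probe sets, which are not replicates), but with 2 pairs and no label that ties them they share only a number. Without 1 array, differences of 1434610_at of Plec ran from -1.01 to 0.18, of 1437554_at from -0.22 to 0.41, of 1423626_at of Dst from -0.11 to 1.37 and of 1427525_at of Cd151 from -0.30 to 0.055. Relative to the brightest probe set of the gene, they then ran from -0.33 to 0.38 for 1434610_at of Plec, and for Cd151 from -0.073 to 0.075 (1424093_x_at), -0.030 to 0.028 (1437670_x_at) and -0.11 to 0.046 (1451232_at).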
